A study of Homo sapiens with 17 samples.

Results

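The splicing factor set examined here held the 60 genes whose symbol in the deposited table begins with SF3A, SF3B, SNRP, PRPF, SRSF or HNRNP, out of 9699 genes in the table. They fell into 8 SF3A/SF3B genes, 11 SNRP genes, 12 PRPF genes, 10 SRSF genes and 19 HNRNP genes. The choice used the symbols alone and no measured value. In the study, RNA-Seq measured transcript levels and Ribo-Seq, which sequences the mRNA fragments that ribosomes protect from nuclease, measured the ribosomes engaged on each coding sequence. It comprised 17 samples, 9 of RNA and 8 of ribosome footprints, and set cells that had stopped dividing, or had been transformed, against proliferating cells.

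The cells were BJ human primary fibroblasts immortalized with hTERT, the catalytic subunit of telomerase, grown per the labels in DMEM with 10% fetal calf serum. Proliferating cells grew under normal conditions. Quiescent cells were depleted of serum. Pre-senescent and senescent cells carried hTERT and a tamoxifen-inducible RASG12V, the oncogenic form of RAS, and received 4-OHT-Tamoxifen at 1e-07 M for 5 days and 14 days. Transformed cells expressed hTERT, a knockdown of p16INK4A, a further knockdown and the SV40 small T antigen, and were transduced with a pBabe-puro retrovirus carrying RASG12V, so that they differed from the proliferating cells by several changes at once. The labels do not say whether the proliferating and quiescent cells carried the inducible RAS construct.

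The table gives 1 value per gene, state and assay, so replicates were already combined by the authors and no spread between replicates could be computed. No value below therefore carries an error or a p-value, and a difference between states is a difference between those columns. The states were processed in 2 runs. Quiescent (Q) and pre-senescent (preS) columns were compared with the proliferating column of run 1 (C12), senescent (S) and transformed (Tr) columns with the proliferating column of run 2 (C3). Quiescence and pre-senescence thus share a control, as do senescence and transformation, and their results are not independent. Levels are FPKM, read density per length of transcript (of coding sequence for Ribo-Seq) scaled to the reads of the library. The table holds no counts, so the number of reads behind a single value cannot be read from it. Because FPKM is relative to the rest of the library, neither cell number nor total RNA per cell can be read from it.

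The labels were checked against known markers. The RNA of 9 measured proliferation genes summed to 642 and 378 FPKM in the run 1 and run 2 proliferating columns, 269 in quiescence, 409.6 in pre-senescence, 24.4 in senescence and 361 in transformed cells. CDKN1A, the p21 cell cycle inhibitor, was at 172 FPKM of RNA in run 2 proliferation and 814 in senescence. CDKN2A RNA, whose single value pools the p16INK4A and ARF transcripts, was at 6.75 FPKM in run 2 proliferation and 12.6 in transformed cells. HRAS was at 1254 to 2415 FPKM of RNA in every column, proliferating cells included, apart from 312 in transformed cells. Of 10 fibroblast markers 10 were in the table, summing to 5498 to 8207 FPKM of RNA, against 3 of 5 epithelial markers summing to 105 to 313, 1 of 4 blood markers at 1.00 to 1.67 and 0 of 3 endothelial markers. In Ribo-Seq the titles and the condition entries of the run 2 proliferating and senescent samples contradict each other. The titles were followed. The column titled senescent had a proliferation sum of 38.1 FPKM against 574 in the column titled proliferating. With the condition entries instead, each Ribo-Seq difference of senescence from proliferation below would change its sign.

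Splicing removes introns from pre-mRNA in the spliceosome, which assembles from small nuclear ribonucleoprotein particles, the snRNPs. Sm proteins, encoded by SNRP genes, form a ring around the snRNA of most of these particles, the SF3A and SF3B subunits help the U2 particle to bind the branch site, and several PRPF proteins belong to the particle that brings the catalytic core. SR proteins, encoded by SRSF genes, mostly promote the use of exons they bind, and hnRNPs, which coat nascent RNA, often oppose it, so their balance helps to set alternative splicing.

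The splicing genes were among the more abundant transcripts of these fibroblasts. Their RNA had a median level of 51.3 FPKM, taken over geometric means of the 6 columns, against 14.2 FPKM over all genes, and 55 of 60 lay above that value. By family the RNA medians were 93.7 FPKM for HNRNP, 62.2 for SF3A/SF3B, 47.0 for SRSF, 41.1 for SNRP and 17.2 for PRPF. HNRNPs stood highest and PRPFs were close to the typical gene. In Ribo-Seq the order was similar, with 217 FPKM for HNRNP, 139 for SRSF, 98.8 for SF3A/SF3B, 93.5 for SNRP and 36.7 for PRPF, against 17.3 over all genes. Translation efficiency (TE), the ratio of a gene's Ribo-Seq FPKM to its RNA FPKM, had a median of 1.98 over 59 splicing genes and 1.28 over all genes. The highest TE belonged to HNRNPA2B1, a close relative of HNRNPA1 that binds nuclear RNA, with ratios from 4.63 in pre-senescence to 6.97 in run 1 proliferation.

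PRPF40B, a U1-associated protein, was the lowest of the set and the single one at the limit of measurement. Its RNA was at 4.06 and 5.10 FPKM in proliferation (run 1, run 2), 3.68 in quiescence, 2.54 at day 5 and 2.36 at day 14 of RASG12V, and 5.55 in transformed cells. Its footprints stood at 2.95 (proliferation, run 1), 1.46 (quiescence) and 1.41 FPKM (pre-senescence) in run 1, and 3.06 (proliferation), 1.00 (senescence) and 1.22 FPKM (transformed) in run 2. The senescent Ribo-Seq value is the smallest value the table holds. A minimum geometric mean of 2 FPKM over the 6 columns of an assay was required before any difference was counted. That left 9107 genes in RNA-Seq, with 60 of 60 splicing genes, and 9045 in Ribo-Seq and 8831 in TE, with 59 of 60, PRPF40B being left out of both.

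Against the proliferating column of its run, splicing factor RNA was lower in quiescence and in senescence, near the control in pre-senescence and slightly higher in transformed cells. In quiescence 57 of 60 genes were below proliferation and the median log2 difference was -0.43, against -0.02 over all genes. A difference of 1.5-fold or more was then counted as lower or higher. By that measure 13 splicing genes were lower in quiescence, where 8.95% of all genes were lower, and 1 was higher (background 10.5%). Pre-senescence showed 1 lower gene (background 6.7%) and 0 higher (background 5.48%), with a median of -0.05 against 0.04. Senescence had 26 lower (background 22.4%) and 2 higher (background 18.3%), with a median of -0.46 against -0.01. In transformed cells 0 were lower (background 11.0%) and 3 higher (background 12.3%), with a median of 0.26 against 0.09. The lower genes made up 21.7% of the set in quiescence and 43.3% in senescence. A threshold of 2-fold left 12 of the 26 lower in senescence and 0 of the 13 in quiescence, and one that followed the spread of genes at a like level gave 3 and 0.

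**Figure D1:**
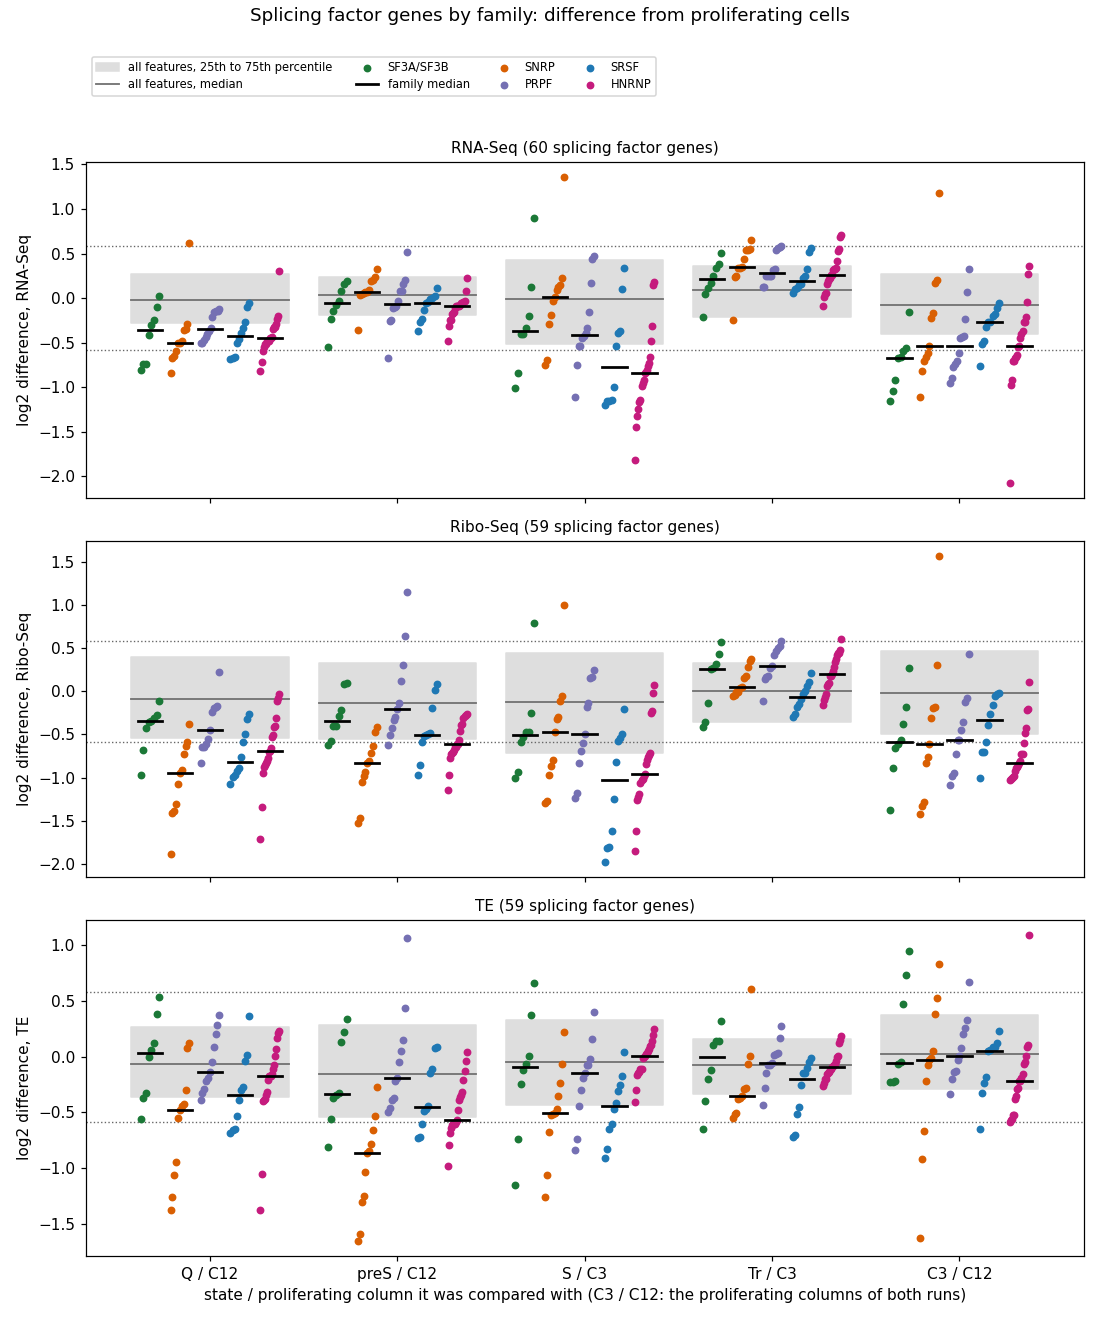
Log2 difference of each splicing gene (points, coloured by family) from the proliferating column of its run, and of the run 2 from the run 1 proliferating column, for RNA-Seq, Ribo-Seq and TE. Black bars are family medians, the grey box and line the quartiles and median of all genes, dotted lines 1.5-fold. HNRNP RNA sits at a median of -0.84 in senescence while SNRP RNA sits at 0.01, and SNRP TE is the lowest family in pre-senescence at -0.87.

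The 2 proliferating columns themselves differed by as much as some of the states. Run 2 proliferation had lower RNA than run 1 for 26 of 60 splicing genes (background 14.5%) and higher RNA for 1 (background 11.5%), with a median of -0.53 against -0.07 over all genes. Ribo-Seq gave 32 of 59 lower (background 20.6%) and 1 higher (background 20.7%), TE 4 lower (background 11.3%) and 5 higher (background 15.2%). The runs differ in sequencing mode for RNA, and culture and run cannot be told apart. A stricter reading asks whether a state lay below both proliferating columns. In senescence 44 of 60 did in RNA-Seq (42.6% of all genes) and 50 of 59 in Ribo-Seq (45.2% of all genes), in quiescence 21 of 60 (28.8%) and 29 of 59 (38.0%), and in pre-senescence 4 of 60 (26.1%) and 18 of 59 (40.2%). Transformed cells had 3 of 60 (28.1%) and 16 of 59 (32.9%) below both columns. The senescent counts made up 73.3% and 84.7% of the set, the quiescent ones 35.0% and 49.2%, the pre-senescent ones 6.67% and 30.5%. For RNA in quiescence, 57 of 60 lay below run 1 proliferation and 21 of 60 below both, so the choice of control decided the direction of many genes there.

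Among the families, hnRNPs had the lowest RNA relative to the proliferating control in senescence. There 15 of 19 HNRNP genes were lower by 1.5-fold or more (background 22.4%) and 0 higher (background 18.3%), at a median of -0.84. Below both proliferating columns lay 17 of 19 (42.6% of all genes). HNRNPD, which binds AU-rich elements and speeds the decay of mRNAs that carry them, led the set. Its RNA was at 77.5 and 67.0 FPKM in run 1 and run 2 proliferation, 47.2 in quiescence, 65.3 in pre-senescence, 19.1 in senescence and 89.5 in transformed cells. The senescent value was the lowest of the 6 and the transformed value the highest. Its Ribo-Seq values followed, at 315 and 274 FPKM in proliferation (run 1, run 2), 172 in quiescence, 259 at day 5 and 89.6 at day 14 of RASG12V, and 367 in transformed cells. The RNA was 3.51-fold lower in senescence than in run 2 proliferation (-1.81 on the log2 scale), the Ribo-Seq value 3.06-fold lower, and its TE ratio stayed between 3.65 and 4.69 in the 6 columns.

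HNRNPA1, which binds exonic silencers and represses the use of nearby splice sites, came next. Its RNA was at 149 (proliferation, run 1), 122 (quiescence) and 133 FPKM (pre-senescence) in run 1, and 191 (proliferation), 70.3 (senescence) and 228 FPKM (transformed) in run 2. In Ribo-Seq it was at 458 and 396 FPKM in run 1 and run 2 proliferation, 180.3 in quiescence, 207 in pre-senescence, 110.1 in senescence and 424 in transformed cells. In RNA the senescent column alone stood well below the rest, while in Ribo-Seq quiescence and pre-senescence were also 2.54-fold and 2.22-fold below run 1 proliferation. The log2 differences in RNA were -0.29 in quiescence, -0.17 in pre-senescence and -1.44 in senescence, and those in TE -1.05, -0.98 and -0.40. HNRNPA1L2, a gene nearly identical in coding sequence to HNRNPA1, had RNA levels of 48.6 and 11.6 FPKM in proliferation (run 1, run 2), 38.7 in quiescence, 43.0 at day 5 and 4.63 at day 14 of RASG12V, and 14.5 in transformed cells. Its value differed 4.20-fold between the proliferating columns. Only uniquely mapped reads were counted, so reads that both genes share were lost to each, and the values of this pair are uncertain.

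Other hnRNPs followed HNRNPD and HNRNPA1 at smaller sizes. HNRNPA2B1 RNA was at 260.5 (proliferation, run 1), 190.4 (quiescence) and 245 FPKM (pre-senescence) in run 1, and 179.9 (proliferation), 93.0 (senescence) and 258 FPKM (transformed) in run 2, a log2 difference of -0.95 in senescence. HNRNPH1, which binds runs of G, had RNA levels of 136 and 87.5 FPKM in run 1 and run 2 proliferation, 97.4 in quiescence, 128 in pre-senescence, 39.0 in senescence and 140.4 in transformed cells. HNRNPM, which binds GU-rich RNA, was at 144 and 90.9 FPKM in proliferation (run 1, run 2), 103 in quiescence, 139.6 at day 5 and 52.2 at day 14 of RASG12V, and 148 in transformed cells. Both were lowest in senescence and among the 3 splicing genes that were higher in transformed cells, at 0.68 and 0.70 on the log2 scale. HNRNPUL1, a relative of the scaffold-binding HNRNPU, was at -1.25 in senescence.

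The remaining HNRNP genes did not pass the threshold in senescent RNA. HNRNPC, which forms tetramers on U-rich tracts of nascent RNA, had RNA levels of 163 (proliferation, run 1), 114 (quiescence) and 155 FPKM (pre-senescence) in run 1, and 136 (proliferation), 151 (senescence) and 155 FPKM (transformed) in run 2. HNRNPK, which binds C-rich RNA, was at 235 and 229 FPKM in run 1 and run 2 proliferation, 200.5 in quiescence, 249 in pre-senescence, 184 in senescence and 267 in transformed cells. Both stayed within 1.5-fold of their controls in each of the 4 states. HNRNPH2 and HNRNPU were the other two hnRNPs below the threshold in senescence, at 0.19 and -0.48. The senescent RNA differences of the family therefore ran from -1.81 for HNRNPD to 0.19 for HNRNPH2.

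Ribosome occupancy of the hnRNPs was lower along with their RNA in senescence, whereas at day 5 it was lower against the run 1 control and mostly not against the run 2 control. In quiescence 3 of 19 HNRNP genes were lower in RNA (HNRNPAB, HNRNPD and HNRNPL; median -0.45, background 8.95%) and 11 of 19 in Ribo-Seq (median -0.70, background 22.8%). In senescent Ribo-Seq 15 of 19 HNRNP genes were lower (median -0.96, background 29.6%) and 0 of 19 were lower in TE (median 0.00, background 18.1%). In pre-senescence 0 of 19 were lower in RNA (background 6.7%), 11 of 19 in Ribo-Seq (median -0.61, background 23.2%) and 9 of 19 in TE (median -0.57, background 22.7%). Of the 11 with lower footprints, 9 lay above the run 2 proliferating column, HNRNPA1L2, HNRNPA2B1, HNRNPA3, HNRNPC, HNRNPF, HNRNPH1, HNRNPH3, HNRNPR and HNRNPUL1. Of the family, 4 of 19 were below both columns in pre-senescent Ribo-Seq (40.2% of all genes) and 16 of 19 in TE (47.1% of all genes). None of the 9 with lower TE changed sign with the other control, and 2 of them stayed past 1.5-fold. The pre-senescent Ribo-Seq column comes from a single sample. Over all genes TE in pre-senescence had a median of -0.15, with 22.7% lower and 13.4% higher, so the hnRNP share in TE was above that of the table by count and by median.

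**Figure D2:**
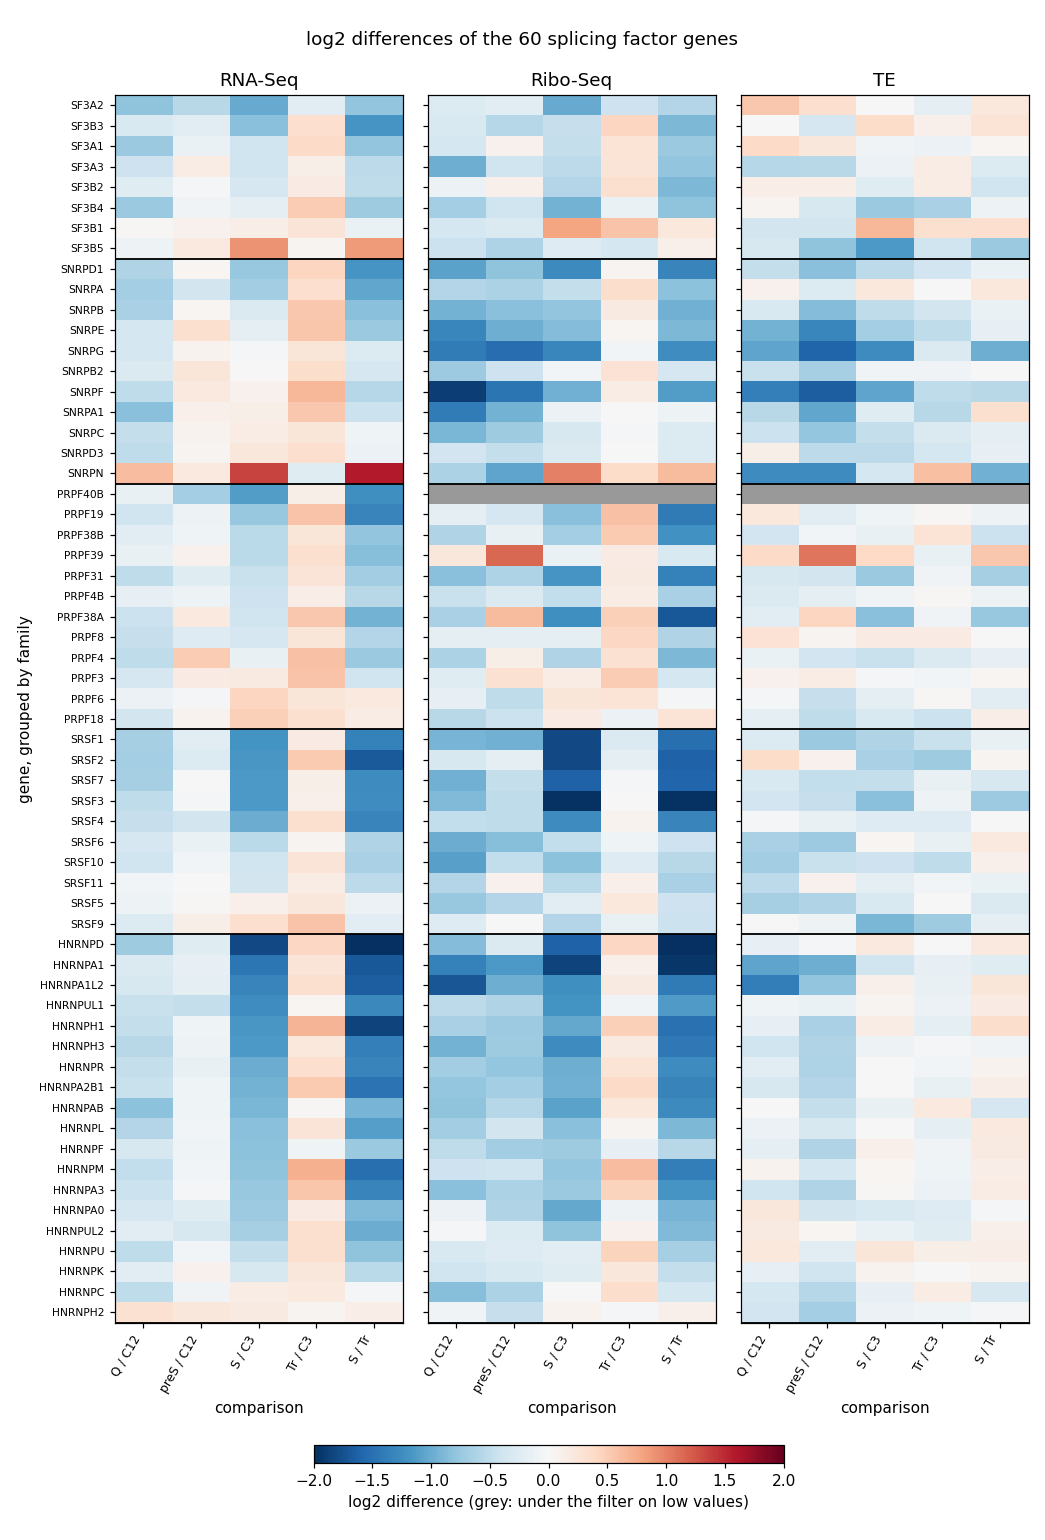
Log2 difference from the proliferating column of the same run, and of senescent from transformed cells (S / Tr), for each of the 60 splicing genes. RNA-Seq, Ribo-Seq and TE are shown, blue lower and red higher, clipped at 2 in each direction. Grey marks PRPF40B in Ribo-Seq and TE, which was under the minimum level. Most HNRNP and SRSF rows are blue in senescent RNA, where SNRPN (1.35) and SF3B5 (0.90) are red.

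Promoter sequences of the families are shown because HNRNP genes, which had the lowest senescent RNA relative to their control, and the SNRP and SF3 genes, most of which did not pass the threshold there, differed in 2 short motifs. RefSeq (GRCh38.p14) gave 72 windows of 300 bases, from 250 bases before to 50 after a transcription start, for 53 of 60 splicing genes. None was matched for HNRNPA1, SRSF2, PRPF3, SNRPD1, SF3B3, PRPF39 and PRPF4B. The CCAAT box, searched as CCAAT on both strands, was in a window of 15 of 18 HNRNP genes (83.3%), 6 of 9 PRPF, 4 of 10 SNRP, 1 of 9 SRSF and 1 of 7 SF3 genes, against 44.0% of 7292 measured genes. By window these were 17 of 28 for HNRNP (60.7%) and 34.8% of all 10719 windows. The ETS-type motif CCGGAAG, on both strands, was in 5 of 7 SF3 genes (71.4%), 6 of 10 SNRP, 2 of 9 PRPF, 2 of 9 SRSF and 2 of 18 HNRNP genes (11.1%), against 23.8% of measured genes and 17.7% of windows. The motifs were chosen after values and sequences had been seen, genes with several starts had several chances of a match, and 2 splicing genes held both. Stretches of 5 HNRNP promoters follow, read 5′ to 3′ on the strand of the gene with the CCAAT box in capitals (ATTGG where the box lies on the opposite strand).
HNRNPA2B1, chr7:26200833-26200857, minus strand: ccttcccgccATTGGcggcggatag
HNRNPA3, chr2:177212666-177212690, plus strand: cgcccccttcCCAATtcgctcctcc
HNRNPAB, chr5:178204448-178204472, plus strand: acttgagcagCCAATgagtgtgcag
HNRNPL, chr19:38850092-38850116, minus strand: tgggcaatgtCCAATaagcgcgcaa
HNRNPK, chr9:83980259-83980283, minus strand: gccctggcagCCAATagggcgcgac
The boxes lay 96, 113, 70, 115 and 53 bases before the start of transcription of their window, in this order. HNRNPL has another annotated start further upstream, and its printed box lies after that start. HNRNPA2B1, HNRNPA3, HNRNPAB and HNRNPL were lower in senescent RNA (-0.95, -0.76, -0.92 and -0.84 on the log2 scale) and HNRNPK, with the same 5 letters, was not (-0.32). Within the family the box did not go with lower RNA. It was in a window of 11 of the 14 HNRNP genes that were lower in senescence, HNRNPA1L2, HNRNPD and HNRNPM being without it, and of 4 of the 4 that were not (HNRNPC, HNRNPH2, HNRNPK and HNRNPU).

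Stretches with the ETS-type motif in capitals (CTTCCGG where it lies on the opposite strand) follow for 2 SF3 and 3 SNRP genes, to show the other motif.
SF3A1, chr22:30356927-30356953, minus strand: ggggacggtcCCGGAAGtgcgccagtc
SF3B4, chr1:149927813-149927839, minus strand: cgtcttcgccCCGGAAGtggaagtcgt
SNRPB, chr20:2470814-2470840, minus strand: gtgagctggaCCGGAAGtaggtttcta
SNRPB2, chr20:16729921-16729947, plus strand: tgccagagacCCGGAAGcatcgatcgg
SNRPG, chr2:70293492-70293518, minus strand: ttcatttcttCTTCCGGtccgaggtcg
They lay 42, 19, 34, 88 and 54 bases before the start, SNRPG also 43 bases before another annotated start. None of these 5 genes passed 1.5-fold in senescent RNA (-0.41, -0.20, -0.29, 0.01 and -0.03, in order). HNRNPD, the gene with the lowest senescent RNA relative to its control, had CCGGAAG in its windows, on the opposite strand. Over the 53 genes with a window, the 27 with a CCAAT box had a median senescent RNA difference of -0.69 with 15 lower, the 26 without -0.31 with 7 lower, the 17 with CCGGAAG -0.20 with 4 lower and the 36 without -0.60 with 18 lower. Family and motif overlap here, and neither binding nor effect of a factor was measured. Of the other motifs searched on both strands, the E-box CACGTG was in 13.2% of splicing genes and 13.0% of measured genes, the E2F-type TTTNNCGC in 18.9% and 13.7% and the YY1-type GCCATNTT in 20.8% and 13.5%. By family, CACGTG and TTTNNCGC were most frequent in HNRNP (6 of 18 genes each) and GCCATNTT in SF3 (4 of 7).

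SR proteins had low senescent values in both assays. Senescent RNA was lower for 5 of 10 SRSF genes (SRSF1, SRSF2, SRSF3, SRSF4 and SRSF7, median -0.77, background 22.4%). Ribo-Seq was lower for 6 of 10 (median -1.03, background 29.6%), and 10 of 10 lay below both proliferating columns in Ribo-Seq (45.2% of all genes). SRSF3, the smallest SR protein and also an adaptor of mRNA export, had RNA levels of 147 and 136 FPKM in proliferation (run 1, run 2), 103 in quiescence, 143 at day 5 and 61.6 at day 14 of RASG12V, and 146 in transformed cells. The Ribo-Seq values were 498 (proliferation, run 1), 269 (quiescence) and 349.6 FPKM (pre-senescence) in run 1, and 492 (proliferation), 125 (senescence) and 493 FPKM (transformed) in run 2. The senescent value was the lowest of 6 in both assays, and transformed cells were 1.07-fold from run 2 proliferation in RNA and 1.00-fold in Ribo-Seq. The log2 differences in senescence were -1.14 in RNA, -1.97 in Ribo-Seq and -0.83 in TE.

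SRSF1, the founding SR protein, had RNA levels of 85.7 and 61.2 FPKM in run 1 and run 2 proliferation, 54.3 in quiescence, 73.0 in pre-senescence, 26.6 in senescence and 68.2 in transformed cells. Its ribosome footprints were at 246 and 187 FPKM in proliferation (run 1, run 2), 129 in quiescence, 126 at day 5 and 53.4 at day 14 of RASG12V, and 152 in transformed cells. In footprints quiescence, pre-senescence, senescence and transformed cells were below both proliferating columns. SRSF2, which promotes inclusion of many exons and marks nuclear speckles, had RNA levels of 109 (proliferation, run 1), 67.9 (quiescence) and 90.03 FPKM (pre-senescence) in run 1, and 76.0 (proliferation), 34.1 (senescence) and 109 FPKM (transformed) in run 2. Ribo-Seq gave 243 and 149.7 FPKM in run 1 and run 2 proliferation, 195 in quiescence, 213 in pre-senescence, 42.7 in senescence and 131 in transformed cells. Senescence was lowest of the 6 columns in both assays. The senescent TE differences were -0.60 for SRSF1, -0.65 for SRSF2 and -0.91 for SRSF9, and these with SRSF3 made 4 of 10 SRSF genes lower in TE (background 18.1%), at a family median of -0.44. SRSF9 RNA was at 124 and 99.1 FPKM in proliferation (run 1, run 2), 103 in quiescence, 135 at day 5 and 125 at day 14 of RASG12V, and 147 in transformed cells. It was not lower in senescence, with a log2 difference of 0.33.

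In quiescence 3 of 10 SRSF genes were lower in RNA (SRSF1, SRSF2 and SRSF7; median -0.42, background 8.95%) and 6 of 10 in Ribo-Seq (median -0.82, background 22.8%). The 3 lower in quiescent TE (background 13.3%) were others, SRSF5, SRSF6 and SRSF10, at -0.66, -0.65 and -0.69. Of these 3, 1 was lower by 1.5-fold or more against both proliferating columns. The TE ratio of SRSF6 was 2.210 in quiescence and 2.205 in run 2 proliferation. SRSF10 is known as an SR protein that represses splicing once dephosphorylated. In transformed cells SRSF2 and SRSF9 were lower in TE, at -0.70 and -0.72, 2 of 10 with a background of 9.87%.

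Most SF3A and SF3B subunits of the U2 particle were at low senescent values without passing 1.5-fold. In RNA 6 of 8 lay below both proliferating columns (42.6% of all genes), as did 6 of 8 in Ribo-Seq (45.2% of all genes). SF3A2 and SF3B3 were lower in RNA (-1.01 and -0.84, background 22.4%) and SF3B5 higher (background 18.3%), with a family median of -0.37. SF3B1, the large subunit that clamps the branch site and a frequent target of mutation in myeloid disease, had RNA levels of 80.3 (proliferation, run 1), 81.8 (quiescence) and 85.0 FPKM (pre-senescence) in run 1, and 72.0 (proliferation), 78.5 (senescence) and 85.8 FPKM (transformed) in run 2. Footprints gave 103 and 79.5 FPKM in run 1 and run 2 proliferation, 81.2 in quiescence, 84.5 in pre-senescence, 137 in senescence and 118 in transformed cells. RNA was level across the columns, while footprints were highest in senescence and second highest in transformed cells. With log2 differences of 0.79 in Ribo-Seq and 0.66 in TE, it was the single splicing gene higher in senescent TE (background 12.8%).

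SF3B5, the smallest SF3B subunit, went the other way. Its RNA was at 129 and 80.7 FPKM in proliferation (run 1, run 2), 120.1 in quiescence, 147 at day 5 and 151 at day 14 of RASG12V, and 83.5 in transformed cells. Its footprints stood at 169 (proliferation, run 1), 126 (quiescence) and 110.3 FPKM (pre-senescence) in run 1, and 204 (proliferation), 172 (senescence) and 159.9 FPKM (transformed) in run 2. Senescent RNA was higher than run 2 proliferation (0.90) but near the run 1 values of 129 in proliferation and 147 in pre-senescence. The footprints were not higher, so TE was lower than in run 2 proliferation (-1.15). The TE ratio was 1.14 in senescence, 2.53 in run 2 proliferation and 1.31 in run 1 proliferation, so the size of this difference depended on the control. SF3A2 RNA was at 59.0 and 26.5 FPKM in run 1 and run 2 proliferation, 33.8 in quiescence, 40.2 in pre-senescence, 13.1 in senescence and 22.8 in transformed cells, so that run 2 proliferation was already below every run 1 column. In quiescence SF3A1, SF3A2 and SF3B4 were lower in RNA (-0.74, -0.80 and -0.74, background 8.95%) and 0 of 8 in TE (background 13.3%). Set against run 2 proliferation instead, these 3 quiescent values had the opposite sign (0.30, 0.35 and 0.17).

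The SNRP genes differed from the hnRNPs in where the difference lay. Their RNA was lower for 4 of 11 in quiescence (SNRPA, SNRPA1, SNRPB and SNRPD1, median -0.51, background 8.95%). It was lower for 0 in pre-senescence (background 6.7%) and 2 in senescence (median 0.01, background 22.4%). SNRPA RNA, at 45.3 FPKM in quiescence, was above run 2 proliferation (33.6). Ribo-Seq was lower for 10 of 11 in quiescence (22.8% of all genes lower, 18.0% higher), 9 of 11 in pre-senescence (23.2% lower, 15.4% higher) and 5 of 11 in senescence (29.6% lower, 20.6% higher), at medians of -0.95, -0.83 and -0.47. TE was lower for 4, 9 and 3 of 11, with backgrounds of 13.3%, 22.7% and 18.1%. Below both proliferating columns in Ribo-Seq lay 8 of 11 in quiescence (38.0% of all genes), 6 of 11 in pre-senescence (40.2%) and 9 of 11 in senescence (45.2%). In pre-senescence 10 of 11 had TE below both (47.1% of all genes).

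The Sm proteins, which close a ring of 7 subunits around the snRNA, made up 4 of the 4, 6 of the 9 and 3 of the 3 SNRP genes with lower TE in these states. The table holds SNRPB, SNRPD1, SNRPD3, SNRPE, SNRPF, SNRPG and SNRPN of them, a grouping made after values were seen. Their TE had medians of -0.95 in quiescence, -1.25 in pre-senescence and -0.52 in senescence, against -0.06, -0.15 and -0.05 over all genes. SNRPF RNA was at 22.9 and 25.8 FPKM in proliferation (run 1, run 2), 16.1 in quiescence, 26.2 at day 5 and 27.4 at day 14 of RASG12V, and 40.6 in transformed cells. In Ribo-Seq it was at 89.0 (proliferation, run 1), 24.1 (quiescence) and 32.3 FPKM (pre-senescence) in run 1, and 52.7 (proliferation), 26.9 (senescence) and 58.6 FPKM (transformed) in run 2. Footprints in quiescence and pre-senescence were 3.69-fold and 2.76-fold below run 1 proliferation, and the RNA differed by -0.51 and 0.19 on the log2 scale.

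SNRPG RNA was at 20.6 and 46.8 FPKM in run 1 and run 2 proliferation, 16.2 in quiescence, 21.6 in pre-senescence, 45.6 in senescence and 55.3 in transformed cells. The Ribo-Seq values were 24.9 and 73.5 FPKM in proliferation (run 1, run 2), 9.40 in quiescence, 8.63 at day 5 and 29.9 at day 14 of RASG12V, and 71.0 in transformed cells. Both RNA and footprints differed more than 2-fold between the proliferating columns, and quiescence, pre-senescence and senescence each had lower footprints than the control of their run. SNRPE RNA was at 32.5 (proliferation, run 1), 25.4 (quiescence) and 40.7 FPKM (pre-senescence) in run 1, and 27.7 (proliferation), 24.2 (senescence) and 40.6 FPKM (transformed) in run 2. Footprints of SNRPE stood at 204 and 165 FPKM in run 1 and run 2 proliferation, 82.5 in quiescence, 103 in pre-senescence, 90.4 in senescence and 169 in transformed cells. They were lower in quiescence, pre-senescence and senescence than in proliferation and transformed cells. SNRPE, SNRPF and SNRPG, which bind one another in the ring as a subcomplex, were the 3 splicing genes with lower TE in both quiescence and senescence. They made up 5.08% of the 59 splicing genes, close to the 3.97% of all genes that were lower in both. Their TE differences in quiescence were -0.95, -1.37 and -1.06, in pre-senescence -1.31, -1.65 and -1.60, in senescence -0.67, -1.06 and -1.26, and in transformed cells -0.51, -0.50 and -0.29. None of the 3 passed 1.5-fold in transformed cells.

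For scale, the 80 ribosomal protein genes in the table, the best known targets of growth-dependent translation, had TE medians of -1.10 in quiescence, -0.62 in pre-senescence, -0.65 in senescence and -0.02 in transformed cells. Against the control of their run, the Sm medians thus lay near those of the ribosomal proteins in quiescence and senescence and below them in pre-senescence. Fewer Sm genes had TE below both proliferating columns, 4, 6 and 5 of 7 in quiescence, pre-senescence and senescence. The ribosomal proteins had 78, 73 and 76 of 80 (all genes 40.0%, 47.1% and 40.0%). In the same states the SRSF family had TE medians of -0.34, -0.45 and -0.44. In TE, 9 of 10 SRSF genes lay below both proliferating columns in senescence (40.0% of all genes), and also 9 of 10 in transformed cells (38.9% of all genes). HNRNP TE was at -0.17, -0.57 and 0.00, PRPF TE at -0.14, -0.19 and -0.15 and SF3 TE at 0.03, -0.33 and -0.10. LSM2 to LSM7 are Sm-like genes outside the set that were picked out after their values were seen. Against run 2 proliferation they were at -0.70 to -1.30 in senescent TE. Set against run 1 proliferation instead, senescent TE was higher for LSM3 and LSM5 and lower for LSM2, LSM4, LSM6 and LSM7. SNRPD3 was the 1 Sm gene that passed 1.5-fold in TE in none of the 4 states, at -0.53 to 0.12.

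SNRPN, an Sm protein close to SNRPB that is expressed from the paternal allele and shares its transcript with SNURF, behaved unlike the rest. Its RNA was at 13.2 and 15.2 FPKM in proliferation (run 1, run 2), 20.4 in quiescence, 15.2 at day 5 and 38.9 at day 14 of RASG12V, and 12.9 in transformed cells. Its ribosome footprints were at 16.5 (proliferation, run 1), 10.6 (quiescence) and 7.97 FPKM (pre-senescence) in run 1, and 6.14 (proliferation), 12.3 (senescence) and 7.93 FPKM (transformed) in run 2. RNA was highest in senescence, and was the single splicing gene higher in quiescence. The log2 differences in RNA were 0.62 in quiescence and 1.35 in senescence. In Ribo-Seq it was lower in quiescence and pre-senescence (-0.63 and -1.05) and higher in senescence (1.00), but its run 1 and run 2 proliferating footprints differed 2.69-fold, so the sign depended on the control. Against the other run's control these became 0.79, 0.38 and -0.42. Reads shared with SNRPB were not counted for either gene.

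Of the proteins particular to the U1 particle (SNRPA and SNRPC) and the U2 particle (SNRPA1 and SNRPB2), 4 of 4 had lower footprints in quiescence (background 22.8%), at -0.59, -0.91, -1.39 and -0.73. Below both proliferating columns lay 3 of 4 (38.0% of all genes). SNRPA footprints, at 87.9 FPKM in quiescence, were above run 2 proliferation (52.8). SNRPA1 had the lowest quiescent RNA difference of the set (-0.84), from 47.6 FPKM in run 1 proliferation to 26.6. In senescence 0 of 4 were lower in footprints by 1.5-fold or more (background 29.6%), but 4 of 4 lay below both proliferating columns (45.2% of all genes). SNRPA was lower in senescent RNA (-0.69, background 22.4%).

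Few PRPF genes, which act at several steps of the spliceosome cycle, passed the threshold in RNA. RNA was lower for 0 of 12 in quiescence, 1 in pre-senescence (PRPF40B, -0.68) and 2 in senescence (PRPF40B, -1.11, and PRPF19, -0.75). The backgrounds were 8.95%, 6.7% and 22.4%. PRPF8, the scaffold of the catalytic core, had RNA levels of 118 and 72.8 FPKM in run 1 and run 2 proliferation, 85.5 in quiescence, 99.4 in pre-senescence, 57.7 in senescence and 86.5 in transformed cells. Ribo-Seq gave 92.9 and 68.2 FPKM in proliferation (run 1, run 2), 81.9 in quiescence, 80.9 at day 5 and 60.3 at day 14 of RASG12V, and 91.2 in transformed cells. Both assays stayed within 1.5-fold of the control in each state. PRPF31, which holds the U4/U6 particle to U5 and is mutated in a form of retinitis pigmentosa, had Ribo-Seq values of 79.2 (proliferation, run 1), 44.6 (quiescence) and 51.4 FPKM (pre-senescence) in run 1, and 41.0 (proliferation), 18.1 (senescence) and 46.4 FPKM (transformed) in run 2. It was lower in quiescence (-0.83), pre-senescence (-0.62) and senescence (-1.18), and lower in senescent TE (-0.74).

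PRPF38A, which joins the spliceosome before its activation, and PRPF39, a U1-associated protein, were the 2 splicing genes with higher footprints in pre-senescence (background 15.4%). PRPF38A Ribo-Seq values were 27.9 and 18.9 FPKM in run 1 and run 2 proliferation, 17.8 in quiescence, 43.3 in pre-senescence, 8.06 in senescence and 26.2 in transformed cells, highest in pre-senescence and lowest in senescence. PRPF39 Ribo-Seq values were 4.29 and 5.79 FPKM in proliferation (run 1, run 2), 5.03 in quiescence, 9.49 at day 5 and 5.28 at day 14 of RASG12V, and 6.51 in transformed cells, on low levels throughout. The pre-senescent log2 differences were 0.64 and 1.15, with RNA at 0.20 and 0.08. PRPF39 was the single splicing gene higher in pre-senescent TE (1.07, background 13.4%). PRPF38A was lower in senescent footprints and TE (-1.23 and -0.84).

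Set side by side, lower footprints of splicing genes went with lower RNA for most in senescence, as over all genes, and for none in pre-senescence. In pre-senescence 24 of 59 splicing genes were lower in Ribo-Seq than in run 1 proliferation (background 23.2%) and 0 of these were lower in RNA, with a Ribo-Seq median of -0.50 against -0.13 over all genes. Of these 24, 14 lay above run 2 proliferation and 7 were also lower by 1.5-fold or more against it, and 18 of 59 were below both columns (40.2% of all genes). Pre-senescent TE was below both columns for 45 of 59 (47.1% of all genes). In quiescence 33 of 59 were lower in Ribo-Seq (background 22.8%, median -0.64, all genes -0.09), 10 of them also in RNA. In senescence 34 of 59 were lower (background 29.6%, median -0.74, all genes -0.12), 23 of them also in RNA. Over the 8831 genes measured in TE, 378 were lower in both assays and 1647 in Ribo-Seq alone in pre-senescence. The same counts were 581 and 1421 in quiescence and 1563 and 1027 in senescence. RNA and Ribo-Seq values of a state come from separate libraries, and TE combines the noise of both.

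**Figure D3:**
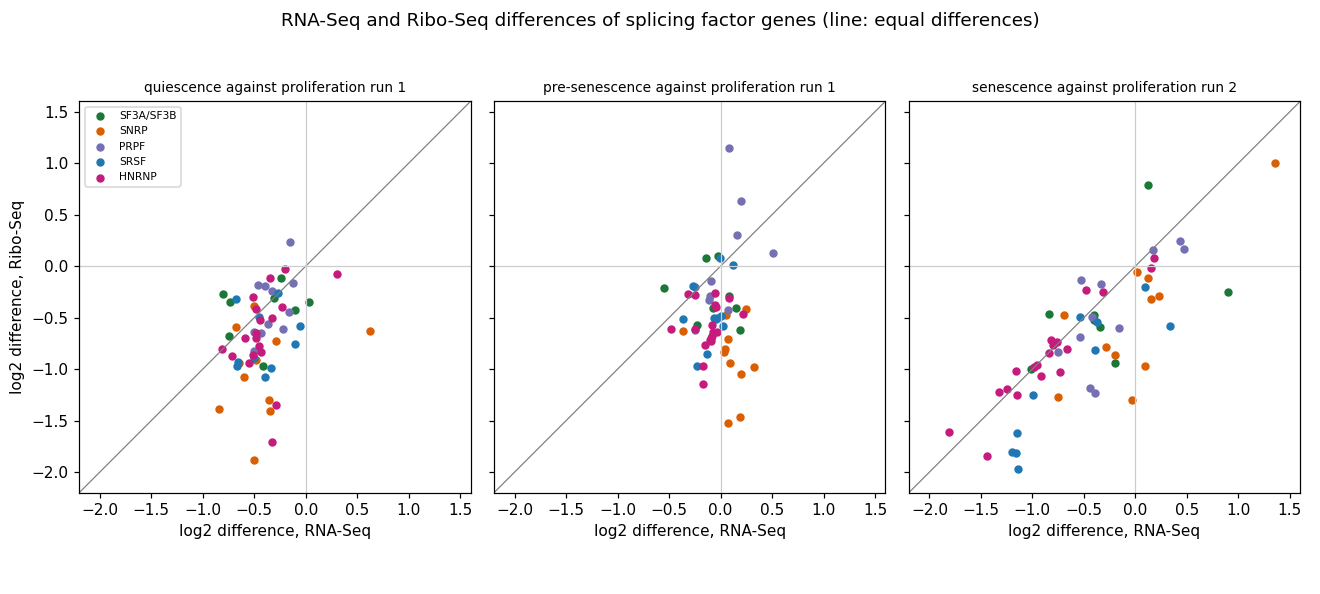
Log2 difference in Ribo-Seq against that in RNA-Seq for 59 splicing genes in quiescence, pre-senescence (both against run 1 proliferation) and senescence (against run 2), coloured by family, with the diagonal marking equal differences. In pre-senescence the points lie around 0 in RNA and below it in Ribo-Seq, with SNRPG and SNRPF lowest. In senescence most HNRNP points lie along the diagonal.

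TE of the whole set had medians of -0.22 in quiescence, -0.47 in pre-senescence, -0.15 in senescence and -0.11 in transformed cells, against -0.06, -0.15, -0.05 and -0.07 over all genes. Lower TE was counted for 9, 22, 11 and 3 of 59 (backgrounds 13.3%, 22.7%, 18.1% and 9.87%) and higher TE for 0, 1, 1 and 1 (backgrounds 10.6%, 13.4%, 12.8% and 4.25%). The lower counts in quiescence and senescence, 15.3% and 18.6% of the set, were close to their backgrounds, and higher TE was rarer than over all genes in each state.

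Transformed cells, which also carried RASG12V, had splicing factor levels near or above the run 2 proliferating column but not above both columns more often than other genes. In RNA 18 of 60 lay above both (35.7% of all genes), and in Ribo-Seq 7 of 59 (30.9% of all genes). Footprints lay below both columns for 16 of 59 (32.9% of all genes), 6 of the 10 SRSF genes among them. The median Ribo-Seq level of the set was 114 FPKM in transformed cells, 169 in run 1 and 119.8 in run 2 proliferation. RNA was higher for HNRNPM, HNRNPH1 and SNRPF (0.66), and Ribo-Seq for HNRNPM (0.61) and PRPF19 (0.59), 2 of 59 with 12.6% of all genes higher and 15.5% lower. PRPF19 is the ubiquitin ligase that helps to activate the spliceosome. In RNA 43 of 60 splicing genes (71.7%) were lower in senescence and higher in transformed cells by any size, a pattern seen in 26.2% of all genes, and both differences use the same proliferating column.

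Senescent and transformed cells, measured in the same run, could also be compared directly without that column. Senescent RNA was lower by 1.5-fold or more for 38 of 60 splicing genes (background 26.6%) and higher for 2 (background 18.2%), at a median of -0.79 against -0.09. By family 16 of 19 HNRNP, 7 of 10 SRSF, 7 of 12 PRPF, 4 of 8 SF3 and 4 of 11 SNRP genes were lower. HNRNPD (-2.23), HNRNPH1 (-1.85) and HNRNPA1 (-1.70) were lowest, and SNRPN (1.59) and SF3B5 (0.85) higher. Ribo-Seq gave 40 of 59 lower (background 29.8%) and 1 higher (background 22.6%), at a median of -0.90 against -0.10. TE was lower for 6 of 59 (background 11.3%), led by SNRPG (-0.97), SNRPN (-0.96) and PRPF38A (-0.76), with PRPF39 at 0.54. The proliferation sum in RNA was 24.4 FPKM in senescence and 361 in transformed cells, and its part in the splicing factor differences was not tested.

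Other genes of the splicing pathway were read from lists made from background knowledge. In senescent RNA, 13 of 63 other spliceosome proteins were lower and 3 higher (median -0.24), 20.6% lower against 22.4% of all genes and 4.76% higher against 18.3%, with BCAS2 (0.71) and TXNL4A (0.70) among the latter. Of 31 other RNA-binding splicing regulators 13 were lower (41.9%) and 0 higher (median -0.55), led by RBMX (-1.68), HNRPDL (-1.54) and TRA2B (-1.38). The exon junction complex core had 1 of 5 lower (median -0.47), the SR protein kinases, phosphatases and importer 3 of 10 (median -0.33), and the SMN complex and methylosome, which load Sm rings onto snRNA, 2 of 12 lower and 4 higher (median -0.13), with WDR77 at 0.86.

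In quiescent RNA, where 8.95% of all genes were lower, the Sm-loading list had 6 of 12 lower (median -0.52), with GEMIN2 at -0.87. Of the other spliceosome proteins 8 of 63 were lower (12.7%, median -0.33), with PPIH at -0.88 and the mRNA export adaptor THOC4 at -0.78. The regulators had 4 of 31 lower (12.9%, median -0.30), the exon junction core 1 of 5 (median -0.48) and the kinase list 0 of 10 (median -0.03), with the SR protein kinase CLK1 at 0.38. In pre-senescence 1 list gene, the splicing regulator MBNL2, was lower (-0.73, background 6.7%). Transformed cells, with 12.3% of all genes higher and 11.0% lower, had 5 of 63 spliceosome proteins higher, led by EFTUD2 (0.92), and 2 of 31 regulators higher against 3 lower, with the neuronal regulator PTBP2 at 1.55, MBNL2 at -1.34 and MBNL1 at -1.08.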

How the data were processed

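RNA-Seq (poly(A) RNA, 9 samples) and Ribo-Seq (cycloheximide-treated, RNase I footprints of monosomes, 8 samples) were measured in BJ fibroblasts. The authors aligned reads with Bowtie (hg19 in the submitters' processing notes) to Ensembl protein-coding transcripts, 1 per gene, kept uniquely mapped reads and deposited FPKM, over the whole transcript for RNA-Seq and the coding sequence for Ribo-Seq, with replicates combined and a floor of 1. The table holds no counts and 1 value per state, so no test, interval or error was computed, and read totals that the study lists by library were not used. RNA libraries of run 2 were single-end and those of run 1 paired-end.

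Differences were taken on the log2 scale (Python 3.11.15, pandas 2.3.3) for genes with a geometric mean of at least 2 FPKM over the 6 columns of an assay. TE was the ratio of Ribo-Seq to RNA FPKM. A change of 1.5-fold or more was counted. The calculation was tested on simulated data. Named genes were the 3 largest rises and falls per state and measure, the same for senescent against transformed cells, a fixed list, the highest and lowest 5 levels, and genes at the floor. Others named were chosen after their values were seen. Genes and lists were chosen with earlier results of these data known. Promoter windows came from RefSeq (GRCh38.p14). Alternatives were another fold, a level-dependent threshold, filters, a pseudocount of 1, median centring, the other run's control and exchanged Ribo-Seq labels. The target of the further knockdown in transformed cells is not reported here.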

Additional observations from a re-analysis of the deposited data

Results flagged for a closer look

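Several genes differed in direction between states, each past 1.5-fold. With 1 value per state, the difference between the directions was not tested. HNRNPH1 RNA was lower in senescence and higher in transformed cells (-1.16 and 0.68 on the log2 scale), as was HNRNPM in RNA (-0.80 and 0.70) and in Ribo-Seq (-0.77 and 0.61). PRPF19 showed these directions in Ribo-Seq (-0.83 and 0.59). PRPF38A Ribo-Seq was higher at day 5 of RASG12V (0.64) and lower at day 14 (-1.23), and SNRPN Ribo-Seq was lower at day 5 (-1.05) and higher at day 14 (1.00). Against the proliferating column of the other run, HNRNPM and PRPF19 in transformed Ribo-Seq, and SNRPN at both days, changed sign, with the values given for that control among the processing alternatives.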

How the results depend on the processing

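Each count of lower splicing genes (higher for transformed cells) was recomputed under the alternatives, in the order quiescence, pre-senescence, senescence, transformed, senescent against transformed, and run 2 against run 1 proliferation, with causes not tested. At 2-fold the counts were 0, 0, 12, 0, 21 and 4 in RNA-Seq, 8, 4, 18, 0, 23 and 8 in Ribo-Seq and 5, 5, 3, 0, 0 and 1 in TE, lower by construction. With a threshold set by the local standard deviation of the differences of genes at a like level they were 0, 0, 3, 0, 8 and 4 in RNA-Seq, 6, 6, 4, 0, 3 and 4 in Ribo-Seq, and 8, 2, 0, 2 and 2 in TE from pre-senescence on. A minimum geometric mean of 10 FPKM left 0 in pre-senescent RNA and 0 in transformed TE. The log2(FPKM + 1) scale left 0 in pre-senescent RNA, 1 in transformed Ribo-Seq and 0 in transformed TE. Subtracting the median of all genes gave 2, 13 and 11 in pre-senescent RNA-Seq, Ribo-Seq and TE, 1 in transformed Ribo-Seq and 7 in TE of run 2 against run 1 proliferation. Without a filter every count stayed within 1.5 times.

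With the proliferating column of the other run the counts were 4 in quiescent RNA-Seq, 12 in quiescent Ribo-Seq, 2 and 7 in pre-senescent RNA-Seq and Ribo-Seq and 42 in senescent RNA-Seq. Several genes named for the largest changes or by the fixed list changed sign under that control. They were, in quiescent RNA, SF3A1 (0.30), SF3A2 (0.35) and SF3B4 (0.17), in quiescent Ribo-Seq HNRNPAB (0.23), HNRNPH1 (0.20), PRPF31 (0.12), PRPF38B (0.12), SNRPB (0.34) and SNRPN (0.79), in quiescent TE SNRPN (0.37), in pre-senescent Ribo-Seq HNRNPA1L2 (0.0090), HNRNPA2B1 (0.048), HNRNPC (0.19), HNRNPF (0.23), HNRNPH1 (0.12), HNRNPUL1 (0.20), PRPF31 (0.33), SNRPB (0.45) and SNRPN (0.38), in pre-senescent TE SNRPN (0.38), in senescent Ribo-Seq SNRPG (0.26) and SNRPN (-0.42), in transformed Ribo-Seq HNRNPM (-0.41) and PRPF19 (-0.39), and in transformed TE SF3B4 (0.088) and SNRPN (-1.02). Further genes that were lower against the control of their run also changed sign. They were SNRPA in quiescent RNA, HNRNPA3, HNRNPR and SNRPA in quiescent Ribo-Seq, and SRSF6 in quiescent TE. In pre-senescent Ribo-Seq they were HNRNPA3, HNRNPH3, HNRNPR, SNRPA and SNRPC. Of 199 changes of single genes past 1.5-fold, 174 stayed past it after centring and 193 on the log2(FPKM + 1) scale, with the others weaker in the same direction. The other run's control applied to 138 of them, the other 61 being senescent against transformed cells, and of these 138, 81 stayed past 1.5-fold, 31 were weaker and 26 changed sign. With the run 2 Ribo-Seq samples taken by their condition entries, the counts were 2 and 5 in senescent Ribo-Seq and TE, 40 and 28 in transformed cells, 2 and 1 for senescent against transformed cells and 49 and 35 for run 2 against run 1 proliferation.

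No paired analysis was possible because the columns carry no replicate numbers, and replicates were not left out in turn for the same reason. Each symbol occurred once, so no choice among duplicates arose, and near-identical proteins were not left out since no protein table was used here. Without counts no value has an interval. PRPF40B in both assays, footprints of PRPF39 and some footprint values of SNRPN and SNRPG, among others, were under 10 FPKM.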
